A study of Mus musculus with 4 samples.

Results

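The enzymes of glycolysis, the pentose phosphate pathway and the citrate cycle were examined in double-positive thymocytes after 3 h with dexamethasone. The set was a list of 34 genes, and its members were the probe sets on the array whose annotation named 1 gene of that list. This gave 43 of the 12488 probe sets, for 30 of the 34 genes. Eno1, Gpi1, G6pdx and Pdk2 had no probe set naming them alone and were not analysed here. Gapdh was named alone only by array control probe sets, 6 in number, of which 3 read the opposite strand.

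RNA came from CD4+CD8+ double-positive thymocytes, the stage at which immature T cells carry both coreceptors and are selected in the thymus. The dexamethasone group was cultured for 3 h in medium with dexamethasone, a synthetic glucocorticoid, at 1e-07 M in PBS, and the medium group for 3 h in medium with PBS. All cells were from female C3H/HeN mice aged 4 weeks, were sorted with microbeads, and were cultured at 5.0E+06 cells per ml in wells of 3 ml. There were 2 arrays in each group, described by the series as technical replicate extracts. The labels do not say whether the extracts came from separate cultures, so p-values and intervals here measure only the spread between extracts. How many mice were pooled is not given in the sources used here.

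Glycolysis splits glucose into pyruvate in the cytosol and yields ATP and NADH. The pentose phosphate pathway branches from it at the first phosphorylated sugar; its oxidative arm makes NADPH and its non-oxidative arm interconverts sugars and supplies ribose for nucleotides. Pyruvate enters mitochondria and is turned into acetyl-CoA by the pyruvate dehydrogenase complex, which its kinases switch off, and the citrate cycle oxidises the acetyl group. In liver and muscle, glucocorticoids are known to alter several of these genes, Pdk4 among them. Resting double-positive thymocytes are small cells with low glucose uptake compared with the proliferating stages before them.

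Signals are MAS5 intensities in arbitrary units. Differences are dexamethasone minus medium on the log2(signal + 1) scale, which understates changes of dim genes, and come from limma fitted over 4950 genes. A gene is said to have risen or fallen only at a Benjamini-Hochberg adjusted p under 0.05 over all of these genes. Signals up to 14, the highest value of 19 probe sets for bacterial and yeast transcripts, were treated as background. A signal per culture cannot tell fewer cells of a type from less RNA per cell. Levels of different probe sets are not comparable. Where a ratio of 2 probe sets on an array is given, only its difference between groups can be read.

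The arrays showed the treatment in Fkbp5, a co-chaperone of the glucocorticoid receptor, at 2382 and 2152 with dexamethasone against 660 and 589.9 in medium (log2 difference 1.86 ± 0.08 (SE), adjusted p = 0.000267 in limma). The probe set of Tsc22d3, another receptor target, was at background in both groups. Of 10 markers of double-positive thymocytes 9 were measured and 0 lay at background. The summed signal of those markers was 14564 and 13406 with dexamethasone against 13574 and 13241 in medium. Among them Satb1 rose (0.43), and Cd8b1 (-0.33) and Ptcra (-0.84) fell. The 3 double-negative markers (Cd44, Il2ra and Kit) were at background on every array, and so were 3 of 7 myeloid markers (Adgre1, C1qa and Lyz2) and 5 of 6 epithelial and stromal markers. The 5 B cell markers summed to 1912 and 1885 with dexamethasone against 1414 and 1392 in medium, chiefly through Ighm, which rose. The 4 markers of mature single-positive cells summed to 256.9 and 238.6 with dexamethasone against 154.4 and 193.7 in medium. Of these Il7r rose, Klf2 (-0.37) and Ccr7 (-0.09) did not pass, and S1pr1 was at background. The 6 epithelial and stromal ones summed to 54.4 and 51.9 with dexamethasone against 27 and 32.2 in medium, where Col1a1 rose. Of 4 erythroid markers 2 were measured, summing to 114.9 and 106.2 with dexamethasone against 96.3 and 105.7 in medium. Alas2 was at background, and Hba-a1 (0.15) did not pass, at 112.1 and 104 with dexamethasone against 94.3 and 99.9 in medium. The part of these cells in the results was not tested. The dexamethasone arrays correlated at r = 0.976 with each other across probe sets and at 0.975 to 0.980 with the medium arrays, against 0.984 between the medium arrays. The 3′ to 5′ ratio of the actin control, which reflects RNA integrity, was 1.40 and 1.24 with dexamethasone against 1.15 and 1.06 in medium, and its part was not tested. That of the Gapdh control was 0.904 and 0.823 with dexamethasone against 0.838 and 0.845 in medium, which overlapped. The 9 hybridization controls, added in the laboratory, were on average 1.37-fold brighter on the dexamethasone arrays. Scaling to them lowers every difference below by about 0.45 on the log2 scale and moves the median of all genes to -0.46.

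With the deposited scaling, the enzymes as a set differed between dexamethasone and medium by about as much as all genes did. Of the 30 measured genes, 25 were tested in the fit over all genes. Hk2, Aldoc, Eno2 and Pdk4 were too dim, and Gapdh had only control probe sets, which that fit left out. Of the 25, 0 rose and 0 fell by limma, where 4.87% of all 4950 genes changed (116 rose and 125 fell). At an unadjusted p under 0.05 there were 5 of the 25 (20%), against 21.7% of all genes. Of the 5, 2 were higher (9.8% of all genes) and 3 lower (11.9% of all genes). The groups did not overlap for 13 of the 25 (52%), against 52.2% of all genes, with 6 higher (24.8% of all genes) and 7 lower (27.4% of all genes). The median log2 difference was -0.07 over the 25 and -0.01 over all genes, and the median absolute difference was 0.13 and 0.15. With dexamethasone 8 of the 25 were higher and 17 lower, where 48.6% of all genes were higher. Without the first medium array 12 were higher and 13 lower, with a median of -0.0022. Without either dexamethasone array 10 were higher and 15 lower, and without the second medium array 8 and 17. By step, the median log2 difference was -0.23 over the 3 phosphofructokinase subunits and Pfkfb3, 0.17 over the 3 lower glycolytic enzymes, -0.18 over the 4 subunits of the pyruvate dehydrogenase complex, -0.07 over the 7 citrate cycle enzymes and -0.02 over the 3 pentose phosphate enzymes.

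The intervals give the changes these arrays could still hide, given the spread between extracts. They do not hold any spread between mice. The 95% interval of the difference lay within 1.5-fold either way for 20 of the 25 enzymes, against 68.8% of all genes, and within 2-fold for 24, against 94.1% of all genes. The median SE was 0.08 over the 25 and 0.12 over all genes. These shares therefore depend on precision as well as on the size of the differences. The intervals that reached beyond 1.5-fold belonged to Pfkfb3, Pfkp, Pfkm, Pdhb and Dlat. Scaled instead to the hybridization controls, 16 of these 25 enzymes fell (64%) and 0 rose, beside 50.7% of all genes that fell and 0.747% that rose, and 1 interval lay within 1.5-fold and 18 within 2-fold. That scaling shifts all genes by about the same amount.

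**Figure D1:**
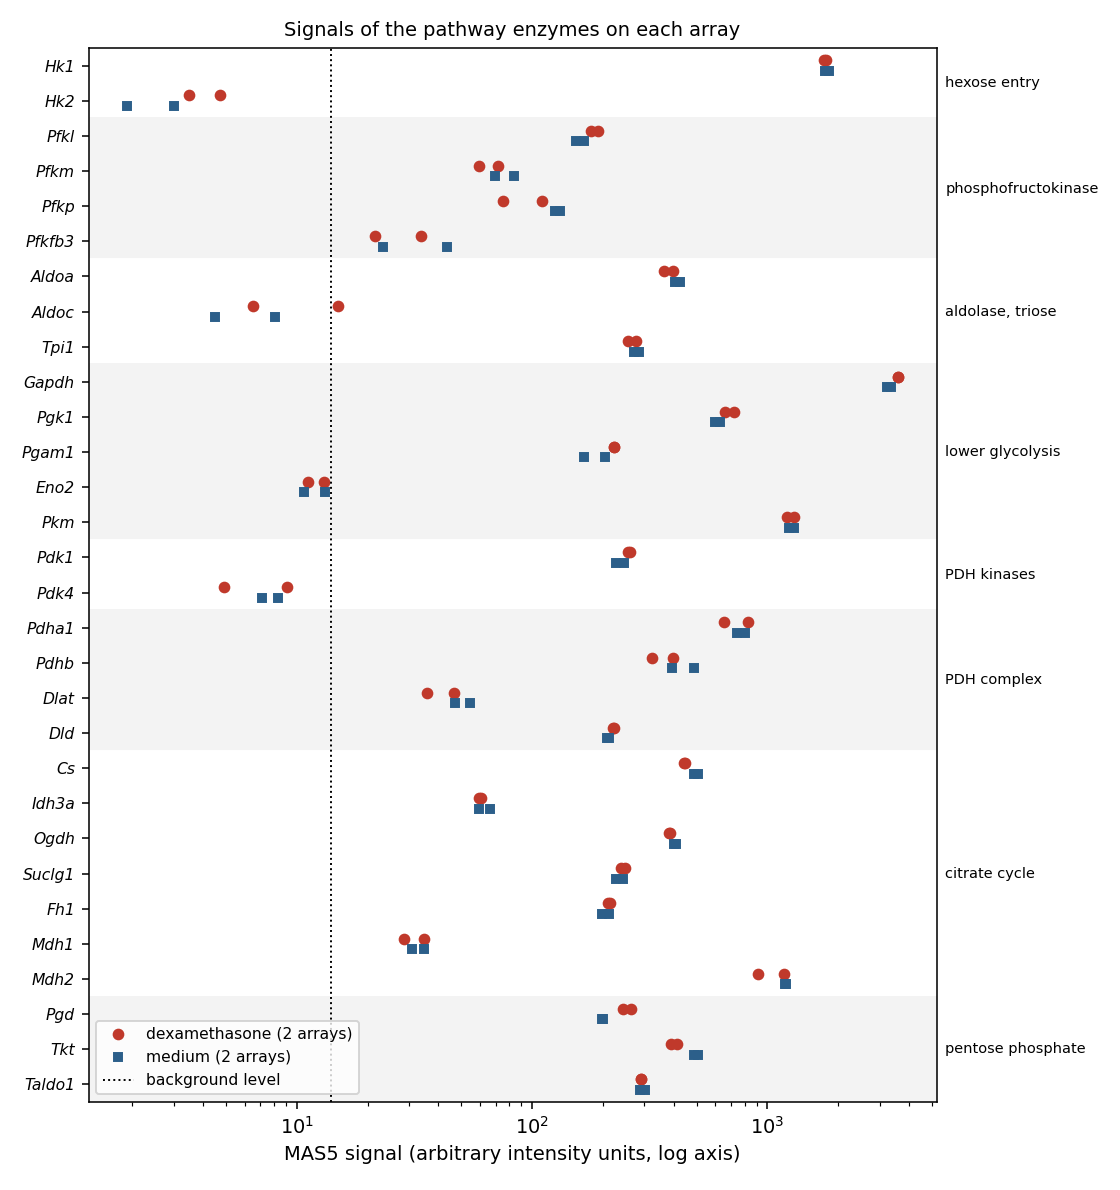
Signal of each enzyme's representative probe set on the 2 dexamethasone arrays (red circles) and the 2 medium arrays (blue squares), on a log axis, ordered by pathway step; the dotted line marks the background signal of 14. Hk2, Eno2 and Pdk4 lie to the left of that line on every array, Aldoc crosses it on 1 array, and for the other enzymes the groups lie close together or overlap.

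Hexokinases commit glucose to the cell by phosphorylating it. Hk1, the widely expressed form, had signals of 1766 and 1734 with dexamethasone against 1835 and 1753 in medium. The groups overlapped, and the log2 difference of -0.04 ± 0.06 (SE) had a 95% interval of -0.19 to 0.12, the tightest standard error among the enzymes. Hk2, the form induced in growing and activated cells, had 3.5 and 4.7 with dexamethasone against 3 and 1.9 in medium on its brighter probe set. All 4 values were background, as were those of its other probe set, which reached 3.8, so Hk2 has no fold change here.

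Phosphofructokinase catalyses the committed step of glycolysis, and its liver (Pfkl), muscle (Pfkm) and platelet (Pfkp) subunits are separate genes. Pfkp had 75.2 and 110.1 with dexamethasone against 125.4 and 131.2 in medium. Both dexamethasone values were below both medium values, and the dexamethasone arrays lay farther apart than the medium arrays. Its log2 difference of -0.49 ± 0.18 had the largest size of the 25, with an interval of -0.93 to -0.05 and an adjusted p of 0.185 in limma. Without the second dexamethasone array the difference was -0.76, and without the first it was -0.22. The dimmer Pfkp probe set had 53.6 and 58.1 with dexamethasone against 59.9 and 69.3 in medium, a log2 difference of -0.20 ± 0.14.

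Pfkl ran the other way, at 191.1 and 178.7 with dexamethasone against 153.8 and 166.7 in medium. Its groups did not overlap, with a log2 difference of 0.21 ± 0.09 and an adjusted p of 0.255 in limma. Pfkm had 59.2 and 71.5 with dexamethasone against 69.3 and 83.6 in medium, which overlapped (-0.22 ± 0.16). The ratio of Pfkp to Pfkl within an array, which no scaling of an array moves, was on the log2 scale -1.33 and -0.69 with dexamethasone against -0.29 and -0.34 in medium. The mean difference of these ratios was -0.70, given as a description with no test. It used the brighter Pfkp probe set, whose difference was the larger of the pair. Among the other ratios taken, that of Pfkm to Pfkl differed by -0.43, Pfkfb3 to Pfkl by -0.44 and Pdk1 to Pdha1 by 0.20. Those of Hk2 to Hk1 and Aldoc to Aldoa held a gene too dim to be tested. All ratios to Pfkl carry its higher signal, so their shared direction is not independent. No ratio was among the planned comparisons. Pfkfb3, which makes the sugar bisphosphate that activates phosphofructokinase, had 21.4 and 33.8 with dexamethasone against 43.4 and 23.2 in medium. Its arrays disagreed within both groups, and its interval of -1.06 to 0.60 leaves a change of 2-fold downwards possible. Its other probe set was background, at no more than 1.2 on any array.

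Aldolase splits the sugar bisphosphate into trioses. Aldoa, the form of muscle and most tissues, had 364.8 and 395.5 with dexamethasone against 425.2 and 405.8 in medium. The groups did not overlap, yet the log2 difference was only -0.13 ± 0.07. Its dimmer probe set, of a family-wide design like the brighter, gave -0.18 ± 0.15. Aldoc, the brain form, had 14.9 and 6.5 with dexamethasone against 4.5 and 8.1 in medium and was too dim to be tested. Tpi1, which interconverts the trioses, differed by -0.07 ± 0.08, with overlapping groups.

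In the lower part of glycolysis all 3 tested enzymes were within 0.27 on the log2 scale, and Gapdh was read from control probe sets. Gapdh, the glyceraldehyde phosphate dehydrogenase that is often used as a constant reference, had 3584 and 3593 with dexamethasone against 3343 and 3233 in medium on its 5′ control probe set. The groups did not overlap, and with the control probe sets of mouse genes added to the fit the log2 difference was 0.13 ± 0.06 (adjusted p = 0.310 in limma). The control probe sets for the middle and the 3′ end of Gapdh differed by 0.04 and 0.16. A probe set that names Gapdh together with its pseudogenes had 1443 and 1434 with dexamethasone against 1647 and 1502 in medium, a difference of -0.13. A dim one that names Gapdh with a pseudogene had 38.3 and 25.3 with dexamethasone against 18.8 and 21.3 in medium, a difference of 0.61. The probe sets thus disagreed in direction, and Gapdh and its near-identical copies could not be told apart on those they share.

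Pgk1, the phosphoglycerate kinase that makes the first ATP of the pathway, had 662.9 and 719.2 with dexamethasone against 595.9 and 627.8 in medium. Pgam1, the mutase of the following step, had 222.2 and 221.9 with dexamethasone against 166.9 and 204.2 in medium. Neither group pair overlapped, and the log2 differences were 0.17 ± 0.07 (adjusted p = 0.226) and 0.27 ± 0.11 (adjusted p = 0.233, both in limma). Leaving out 1 array moved Pgam1 between 0.12 and 0.41. With scaling to the hybridization controls both turned negative, at -0.28 and -0.19. Eno2, the neuronal enolase, was background at 13 and 11.2 with dexamethasone against 13.2 and 10.7 in medium. Pkm, the pyruvate kinase, had 1293 and 1214 with dexamethasone against 1303 and 1236 in medium on its brighter probe set, a difference of -0.02 ± 0.07. Its dimmer, family-wide probe set had 137.8 and 285.0 with dexamethasone against 286.7 and 333.0 in medium. The low value of the first dexamethasone array set that probe set's difference of -0.64 ± 0.30, which did not pass (adjusted p = 0.318 in the limma fit over 6500 probe sets).

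**Figure D2:**
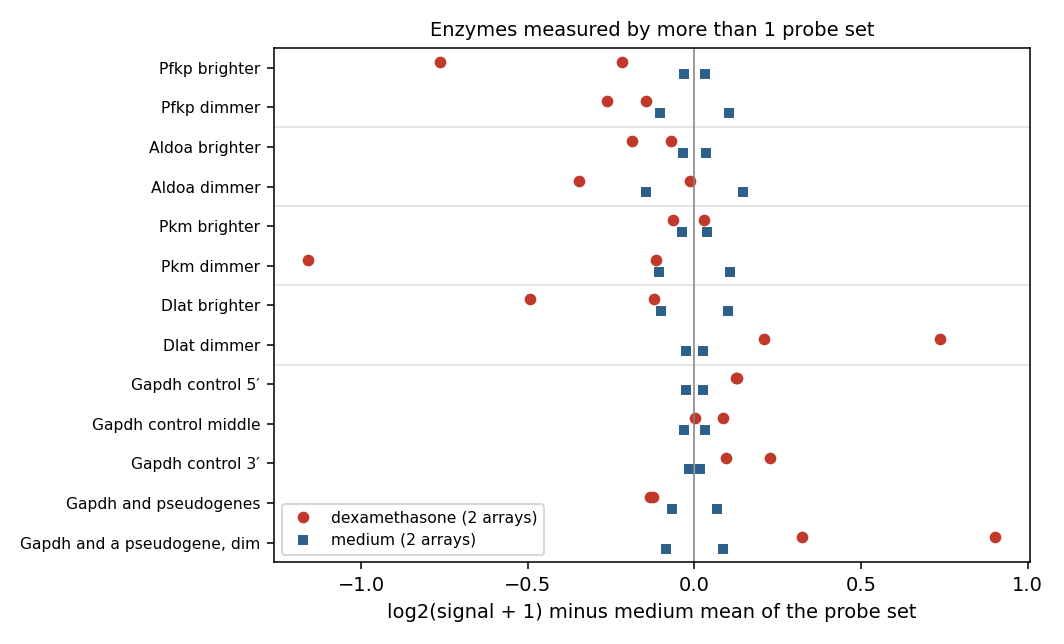
Each array's log2(signal + 1) minus the medium mean of the same probe set, for 4 enzymes with more than 1 tested probe set and for Gapdh; red circles are the 2 dexamethasone arrays and blue squares the 2 medium arrays. The dexamethasone mean was lower on both probe sets of Pfkp, Aldoa and Pkm, Dlat was lower on the brighter and higher on the dimmer, the Gapdh control probe sets had higher means, and of the probe sets that Gapdh shares with pseudogenes the brighter was lower and the dim one higher.

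More than 1 probe set was present for 8 of the enzymes besides Gapdh, 16 probe sets in all, and both were bright enough to be tested for 4 genes. The second probe sets of Hk2, Pfkfb3, Idh3a and Pgd were at background. The direction was shared by the probe sets of 3 of these 4. The exception was Dlat, the acetyltransferase core of the pyruvate dehydrogenase complex. Its brighter probe set had 46.5 and 35.7 with dexamethasone against 54.5 and 47.2 in medium (-0.31 ± 0.18), and its dimmer one 27.8 and 19 with dexamethasone against 16 and 16.6 in medium (0.47 ± 0.26). When every probe set was tested on its own, 0 of the 30 tested for these enzymes changed in limma, against 3.72% of all 6500 probe sets.

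The pyruvate dehydrogenase kinases inactivate the complex by phosphorylation. Pdk1 had 261.1 and 255.5 with dexamethasone against 227.3 and 245.3 in medium, which did not overlap, for a log2 difference of 0.13 ± 0.08. Pdk4, a known glucocorticoid target in muscle and liver, was background with 9.1 and 4.9 in dexamethasone against 8.3 and 7.1 in medium. No higher level of Pdk4 was detectable at this sensitivity.

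Within the complex itself, 3 of the 4 subunits were lower and 0 passed. Pdha1, the catalytic alpha subunit, differed by -0.07 ± 0.12 and Pdhb, its beta partner, by -0.28 ± 0.14. Pdhb had 322.7 and 398.3 with dexamethasone against 393.1 and 485.2 in medium, so its groups overlapped, and leaving out 1 array moved the difference between -0.44 and -0.13. Dld, the dehydrogenase subunit that the complex shares with others, differed by 0.08 ± 0.07, with a signal of 222 ± 1.20 with dexamethasone and 210 ± 2.26 in medium (SD, n = 2). Pdha1 was 829.3 and 651.6 on the dexamethasone arrays, so that its sign turned, to 0.10, without the second of them.

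The 7 citrate cycle enzymes stayed within 0.21 on the log2 scale. Cs, the citrate synthase that begins the cycle, had 440.9 and 446.3 with dexamethasone against 488.0 and 504.9 in medium. Its groups did not overlap and its interval was -0.32 to -0.01, with a log2 difference of -0.16 ± 0.06 and an adjusted p of 0.211 in limma. Mdh2, the mitochondrial malate dehydrogenase, had the largest difference of the cycle at -0.21 ± 0.12. It was 1173 and 913 with dexamethasone against 1203 and 1187 in medium, so its first dexamethasone array lay near the medium arrays. Without the second dexamethasone array the difference was -0.026, smaller than that of Cs (-0.17), and without the first it was -0.39. Ogdh, the oxoglutarate dehydrogenase, had 383.4 and 383.9 with dexamethasone against 402.6 and 409.6 in medium, a small difference of -0.08 ± 0.06 with no overlap between groups. The other 4 enzymes of the cycle overlapped. Idh3a, an isocitrate dehydrogenase subunit, differed by -0.07, Mdh1, the cytosolic malate dehydrogenase, by -0.06, Suclg1, a succinyl-CoA ligase subunit, by 0.05, and Fh1, the fumarase, by 0.05.

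**Figure D3:**
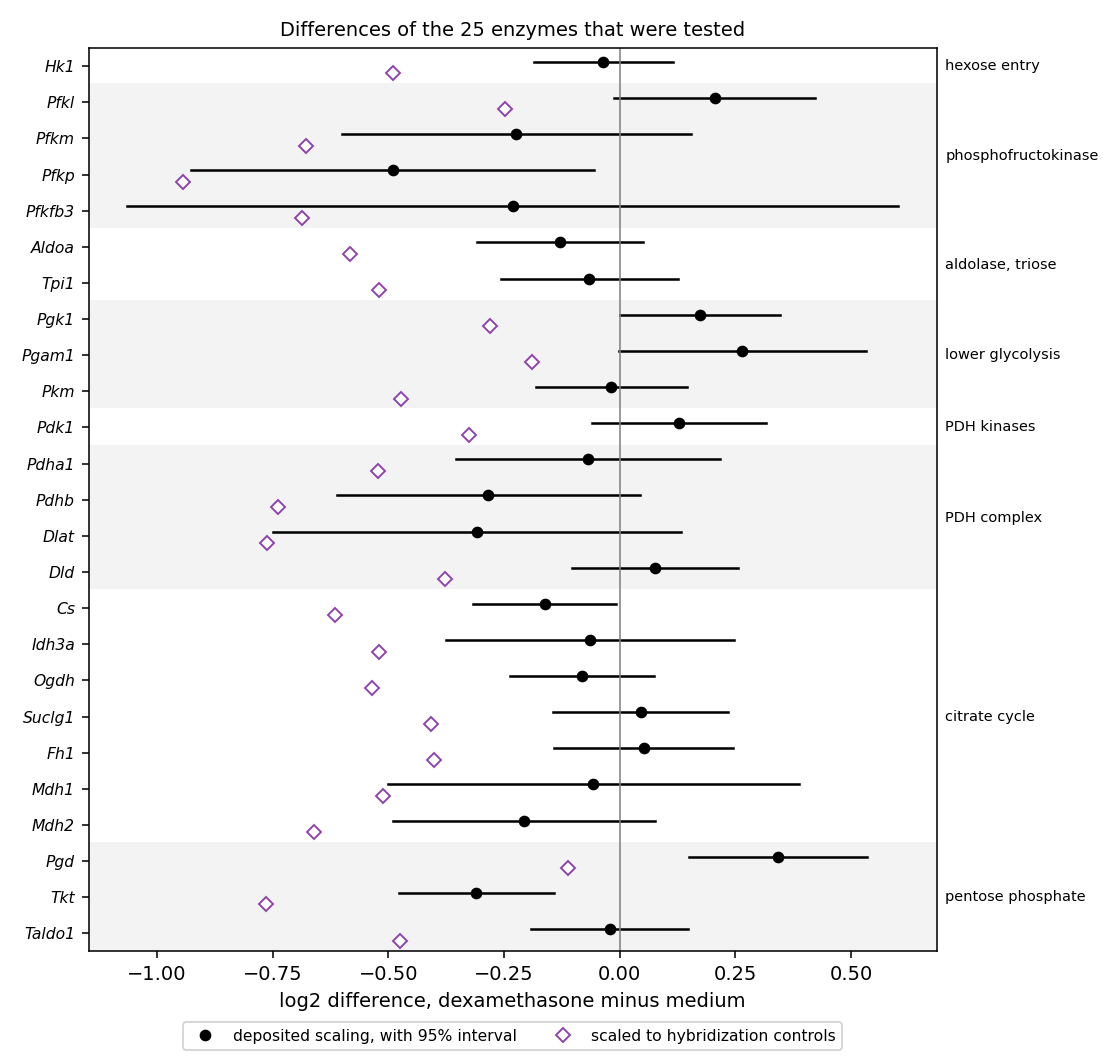
Log2 difference, dexamethasone minus medium, of the 25 tested enzymes with the 95% interval from limma (black), and the same difference after scaling to the hybridization controls (open diamonds). Pgd at 0.34 and Tkt at -0.31 have intervals clear of 0 and from each other, most other intervals cross 0, and the diamonds all lie below 0, each shifted by about the same amount.

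The pentose phosphate pathway held the 2 enzymes nearest to the threshold, and they differed in opposite directions. Pgd, the phosphogluconate dehydrogenase of the oxidative arm, which makes NADPH, had 242.8 and 262.5 with dexamethasone against 199.7 and 198.3 in medium. Tkt, the transketolase of the non-oxidative arm, had 387.7 and 412.7 with dexamethasone against 505.3 and 487.1 in medium. For both genes the gap between groups was wider than the gap within either. Pgd averaged 253 ± 13.9 with dexamethasone and 199 ± 0.990 in medium (SD, n = 2), a log2 difference of 0.34 ± 0.08 (interval 0.15 to 0.53, adjusted p = 0.0655 in limma). Tkt averaged 400 ± 17.7 with dexamethasone and 496 ± 12.9 in medium, a log2 difference of -0.31 ± 0.07 (interval -0.48 to -0.14, adjusted p = 0.0588 in limma).

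Neither gene passed. Tkt passed with the filter at the 60th percentile of brightness, which tests 3300 genes, as 1 of 21 enzymes against 4.67% of those genes that fell, and with scaling to the hybridization controls (-0.76); over 16 alternatives its adjusted p ran from 0.000595 to 0.297. Pgd passed in 0 of 16, with adjusted p from 0.0505 to 0.614, and its sign turned with the hybridization controls (-0.11). The log2 ratio of Pgd to Tkt within an array was -0.67 and -0.65 with dexamethasone against -1.33 and -1.29 in medium, a mean difference of 0.65. This pair was picked after its values were seen, and the ratio is a description that no scaling of an array changes. Taldo1, the transaldolase of the non-oxidative arm, had 290.9 and 290.3 with dexamethasone against 288.8 and 301.3 in medium and differed by -0.02 ± 0.07. The second Pgd probe set was at background on every array and gives no direction.

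The other genes of these pathways were taken from 6 lists. Of 97 genes listed, 73 had a probe set naming them alone and 48 were tested, of which 3 rose and 1 fell in limma, beside 2.34% and 2.53% of all genes, and 24 were higher and 24 lower.

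Other glycolytic isozymes and branches gave 1 rise and 0 falls among 7 tested. Bpgm, the mutase that diverts a glycolytic intermediate into bisphosphoglycerate, had 343.2 and 352.2 with dexamethasone against 236.8 and 248.3 in medium. The groups were well apart, and it rose 1.43-fold (log2 difference 0.52 ± 0.07, adjusted p = 0.0153 in limma). The call was lost without any 1 of the arrays (adjusted p from 0.0722 to 0.143), with differences of 0.48 to 0.55, without the variance trend, and with scaling to the hybridization controls, where the difference was 0.06. Gpd1, the cytosolic glycerol phosphate dehydrogenase, came next in size at -0.39 ± 0.35 and did not pass.

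Glucose uptake and lactate gave 1 rise and 1 fall among 8 tested. Emb, the embigin that escorts lactate transporters to the membrane, had 448.5 and 430.7 with dexamethasone against 159.5 and 172.6 in medium, and rose 2.64-fold (1.40 ± 0.08, adjusted p = 0.000575 in limma). Slc16a1, the lactate transporter MCT1, had 41.6 and 35 with dexamethasone against 65.2 and 66.7 in medium, and fell by 0.77 on the log2 scale (adjusted p = 0.0416 in limma). The Emb call held without each array, but its other probe set was at background and averaging both lost the call (adjusted p = 0.0718). The Slc16a1 call was lost without any 1 array (adjusted p from 0.0799 to 0.221), with no filter and without the variance trend. The other members of the list did not pass. Ldha, the main lactate dehydrogenase subunit of muscle and tumours, differed by -0.11, Ldhb by 0.35 and the glucose transporter Slc2a1 by 0.06.

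Of the 6 other pentose phosphate enzymes tested 0 passed, and 4 were lower, with a median of -0.24. Rpia, the ribose phosphate isomerase of the non-oxidative arm, had 221.4 and 238.1 with dexamethasone against 349.9 and 286.4 in medium. Its groups did not overlap, and its log2 difference was -0.46 ± 0.11 (adjusted p = 0.0708 in limma). Prps2, which turns ribose phosphate into the precursor of nucleotides, had 44.3 and 43.6 with dexamethasone against 53.7 and 65.0 in medium (-0.42 ± 0.15, adjusted p = 0.180 in limma). Of the others, H6pd and Pgls, enzymes of the oxidative arm, were also lower at -0.24 each, and Rpe, an epimerase of the non-oxidative arm, and Prps1, a relative of Prps2, were higher at 0.11 each. The signs were thus mixed within both arms. As 0 passed and the Rpe groups overlapped (SE 0.23), whether direction follows the arms cannot be read.

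Of 11 other pyruvate dehydrogenase and citrate cycle genes tested 0 passed. The largest differences were those of both NADP-dependent isocitrate dehydrogenases. Idh2, the mitochondrial form, had 220.7 and 216.2 with dexamethasone against 274.0 and 309.3 in medium, a log2 difference of -0.41 ± 0.09 (adjusted p = 0.0514 in limma). Idh1, the cytosolic form, had 64.0 and 59.4 with dexamethasone against 92.9 and 75.3 in medium (-0.43 ± 0.14, adjusted p = 0.155 in limma). Idh2 passed downwards in 4 of 16 alternatives. The succinate dehydrogenase subunits Sdha, Sdhb, Sdhc and Sdhd lay between -0.03 and 0.08.

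Anaplerosis and glutamine entry gave 0 of 7, with Slc1a5, a glutamine transporter, at -0.44 ± 0.24 (-0.71 to -0.17 when 1 array was left out) and Slc25a11, the mitochondrial oxoglutarate carrier, at -0.37 ± 0.09 (adjusted p = 0.0760 in limma). Among regulators of glycolysis 1 of 9 rose. This was Txnip, which restrains glucose uptake and binds thioredoxin, with 1257 and 1331 with dexamethasone against 621.4 and 599.9 in medium, a 2.12-fold rise on its brighter probe set (log2 difference 1.08 ± 0.06, adjusted p = 0.00075 in limma). On its dimmer probe set it had 36.2 and 42.0 with dexamethasone against 43.1 and 35.3 in medium. Esrra, a nuclear receptor that regulates mitochondrial genes, had the next largest difference at -0.32 ± 0.14 and did not pass. Myc, an activator of glycolytic genes, was background on every array at no more than 5.9, and Hif1a, the oxygen-regulated factor, differed by 0.15.

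**Figure D4:**
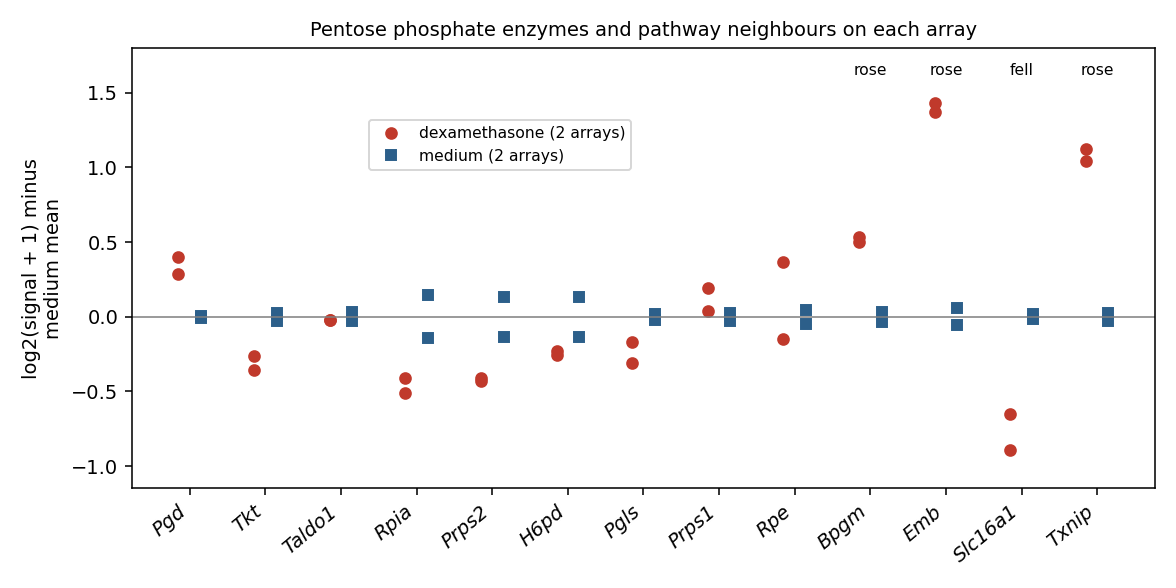
Each array's log2(signal + 1) minus the gene's medium mean, for the tested pentose phosphate enzymes and the neighbouring genes that passed; red circles are the 2 dexamethasone arrays, blue squares the 2 medium arrays, and "rose" or "fell" marks genes that passed. Pgd lies above and Tkt, Rpia, Prps2, H6pd and Pgls lie below the medium arrays, Taldo1 and Rpe overlap them, and Emb and Txnip stand more than 1 above them.

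Promoter windows of 300 bases, from 250 before to 50 after an annotated start, were taken from RefSeq (GRCm38.p6) for 29 of the 30 measured enzymes, with 45 windows in all. Both strands were searched for ACGTG, the core to which hypoxia-inducible factors and some E-box proteins bind, for the E-box CACGTG, which contains it, and for ACANNNTGT, the core of the palindrome that glucocorticoid receptor dimers bind. ACGTG was present for 13 of the 29 enzymes (44.8%), against 31.6% of the 4067 tested genes with a window, and in 46.7% of the enzyme windows (21 of 45, 6 of them windows of Ogdh) against 27.2% of the 5251 windows of tested genes. The median GC content was 59.7% in the enzyme windows and 61% in those of tested genes. Over all 32851 windows of the table ACGTG was present in 19.6%, at a median GC content of 52.7%. CACGTG was present for 3 of the 29 enzymes (10.3%), against 12.8% of the tested genes. ACANNNTGT was present for 1 of the 29, Ogdh (3.45%), against 4.72% of the tested genes. ACGTG was in a window of 2 of the 8 higher tested enzymes and of 8 of the 16 lower ones that had a window. A gene with more windows has more places for a match, in this count and in the shares of genes above. Among lower enzymes Ogdh had 6 windows, Pfkm 4 and Aldoa 3, and higher ones had at most 2 (Pdk1 and Pgd). These matches are descriptions of the letters and not of binding. The windows of Pgk1 and Pgam1, the only higher tested enzymes that hold ACGTG, were picked after this was seen and show where it lies, and those of Txnip and Emb because they had the largest rises in the lists and hold the receptor core. Capitals mark ACGTG or its reverse complement in the first pair and ACANNNTGT in the second pair.
Pgk1, chrX:106186850-106187149, plus strand: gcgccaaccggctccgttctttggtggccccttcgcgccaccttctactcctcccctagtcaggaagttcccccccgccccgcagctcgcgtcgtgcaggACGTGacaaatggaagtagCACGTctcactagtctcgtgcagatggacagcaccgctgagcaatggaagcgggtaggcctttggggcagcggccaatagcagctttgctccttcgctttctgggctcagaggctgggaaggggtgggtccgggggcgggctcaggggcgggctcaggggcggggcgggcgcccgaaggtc
Pgam1, chr19:41911621-41911920, plus strand: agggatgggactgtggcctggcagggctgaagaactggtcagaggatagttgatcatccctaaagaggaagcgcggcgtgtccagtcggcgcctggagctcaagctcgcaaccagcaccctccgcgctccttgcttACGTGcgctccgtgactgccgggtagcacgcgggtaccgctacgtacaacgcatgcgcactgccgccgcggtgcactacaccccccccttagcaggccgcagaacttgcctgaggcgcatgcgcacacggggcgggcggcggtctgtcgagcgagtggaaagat
Txnip, chr3:96557707-96558006, plus strand: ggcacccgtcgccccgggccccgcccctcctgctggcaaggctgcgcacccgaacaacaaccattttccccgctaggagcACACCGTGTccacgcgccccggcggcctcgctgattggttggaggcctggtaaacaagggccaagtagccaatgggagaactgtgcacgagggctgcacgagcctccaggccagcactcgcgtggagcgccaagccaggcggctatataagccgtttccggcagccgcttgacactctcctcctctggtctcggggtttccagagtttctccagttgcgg
Emb, chr13:117220323-117220622, plus strand: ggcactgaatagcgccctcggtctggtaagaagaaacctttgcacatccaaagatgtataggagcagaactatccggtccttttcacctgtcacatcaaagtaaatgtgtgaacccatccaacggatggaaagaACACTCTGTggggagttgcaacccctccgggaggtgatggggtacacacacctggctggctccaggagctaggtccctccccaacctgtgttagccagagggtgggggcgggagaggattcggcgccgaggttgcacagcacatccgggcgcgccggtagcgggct
In Pgk1 the core began 150 bases before the start and its reverse complement 131 bases before it, and in Pgam1 a single copy began 114 bases before the start. The receptor core began 170 bases before the start in Txnip and 116 bases before it in Emb.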

How the data were processed

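RNA of 4 samples was measured on Affymetrix arrays. The authors deposited linear-scale intensities from MAS5, per the submitters' processing notes; version and settings are not given in the sources used here. Each array's trimmed mean, with 2% taken from each end, was 100.06 to 100.07. No detection calls were used. Of 12488 probe sets 66 were controls, 10833 named 1 gene in the platform annotation, 396 several and 1193 none; 10817 of the single-gene ones matched the RefSeq gene table by ID. Values were taken as log2(signal + 1), the pseudocount being the rounded 10th percentile. For each of 8251 genes the probe set of highest mean was kept, and genes at or under the 40th percentile of mean signal (18.5) were left out. The 2 dexamethasone samples were compared with the 2 medium samples by a two-sided moderated test (lmFit, then eBayes with a variance trend; limma 3.58.1, R 4.3.3), and p-values were adjusted by Benjamini and Hochberg's method over every gene tested. Another fit tested 6500 probe sets. The number of arrays limits the precision. Every member was named, with values on every array for isozymes and for absolute differences of at least 0.4; Tkt, Pgd, Pgk1, Pgam1, Cs, Mdh2 and several list genes got array values after these were seen. From the lists, passing genes and the 2 largest differences were named; Ldha, Ldhb, Slc2a1, Hif1a, Myc, H6pd, Pgls, Rpe, Prps1 and the Sdh genes were added afterwards. The members and lists were chosen with earlier results of these data known. The fit was tested on simulated data in 10 draws of 4950 genes. It called 3.2% of log2 changes of 0.3, 27.6% of 0.5, 76.6% of 1 and 97.6% of 2. Of its calls 5.14% were false. Alternatives were scaling, pseudocount, filter, variance trend, replicate block, probe set choice and leaving out each array. Same-numbered arrays had a correlation of deviations of 0.0892, and nothing in the labels says that the numbers pair them.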

Additional observations from a re-analysis of the deposited data

How the results depend on the processing

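The enzymes gave 0 rises in all 16 alternatives and 0 falls in 14 of them. The exceptions were scaling to the hybridization controls, with 16 falls, and the filter at the 60th percentile, with 1. Over all genes, where 116 rose and 125 fell, the counts were 37 and 2511 with scaling to the hybridization controls, 63 and 53 with no filter, and 41 and 28 without the variance trend. With the replicate number as a block they were 175 and 196, and for the other pathway lists 4 and 2; no enzyme passed with this block, and the arrays share only a number. Leaving out 1 array gave 30 to 41 rises and 12 to 29 falls over all genes, 0 and 0 for the enzymes, and 2 rises and 0 falls for the lists. The lists, where 3 rose and 1 fell, had 3 falls with each array centred on its median, 24 with scaling to the hybridization controls, 0 with no filter and 0 without the variance trend. Signs turned with the hybridization controls for Pfkl (-0.25), Pgk1 (-0.28), Pgam1 (-0.19), Pdk1 (-0.33), Dld (-0.38), Suclg1 (-0.41), Fh1 (-0.40) and Pgd (-0.11), where all genes shift by about the same amount. They also turned for Suclg1 (-0.014) and Fh1 (-0.0077) with arrays centred on their medians, for Taldo1 (0.011) with quantile normalization and for Dlat (0.082) with the mean of its probe sets, which averages 2 that disagree. Leaving out 1 array gave ranges that cross 0 for Pfkfb3, Pkm, Pdha1, Idh3a, Suclg1, Mdh1, Taldo1 and Gpd1: -0.67 to 0.21 for Pfkfb3, -0.064 to 0.027 for Pkm, -0.24 to 0.10 for Pdha1, -0.14 to 0.0083 for Idh3a, -0.0050 to 0.10 for Suclg1, -0.20 to 0.083 for Mdh1, -0.052 to 0.0089 for Taldo1, -0.88 to 0.11 for Gpd1. The cause of other changes was not tested. Background limits Hk2, Aldoc, Eno2 and Pdk4. Alternatives with control probe sets included and with the percentile taken over probe sets were chosen after seeing the data.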
